A study of Homo sapiens with 9 samples.

Results

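The genes described here make, import and export cholesterol and make fatty acids. They are 42 genes named by function, matched by symbol among the 23368 rows of the count table, and all 42 were among the 13648 genes with enough reads to be tested. By role they are 2 suppliers of acetoacetyl-CoA, 6 mevalonate pathway genes, 11 genes from squalene to cholesterol, 5 genes of SREBP control, 4 of uptake and transport inside the cell, 5 of efflux and the liver X receptors (LXR), and 9 of fatty acid synthesis. Their RNA was sequenced in 9 libraries of A673, a long-established line of Ewing sarcoma cells: 3 with scrambled siRNA, 3 with siLRWD1-5 and 3 with siLRWD1-6. Both of the latter siRNAs target LRWD1, which encodes a protein that binds the origin recognition complex, and the design asks how each changes expression in this single line. All 9 cultures were reverse transfected with siLentFect at 13 nM siRNA, and RNA came from 3 independent experiments, collected 48 h after transfection. All were grown in high-glucose medium with 10% fetal bovine serum approved for Tet systems, Zeocin and blasticidin. Neither the construct that these antibiotics select for nor the siRNA sequences are given in the sources used here.

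Cholesterol is built from acetyl-CoA through mevalonate, farnesyl diphosphate and squalene, which is closed to lanosterol and trimmed to cholesterol in the endoplasmic reticulum. When sterol in that membrane falls, the escort protein SCAP carries the SREBP transcription factors to the Golgi, where they are cleaved and freed to switch on genes of synthesis and uptake. INSIG proteins hold SCAP back when sterol is plentiful, and oxidised sterols activate LXR, which raises efflux transporters and SREBF1. Cultured cells also take cholesterol from serum lipoproteins, so uptake and synthesis are read side by side.

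The libraries held 11971179 to 15674452 counted reads. LRWD1 had 49.1 to 54.6 CPM (counts per 1e6 counted reads, after TMM scaling of library sizes) with scrambled siRNA, 10.4 to 11.3 CPM under siLRWD1-5 and 6.55 to 8.55 CPM under siLRWD1-6. Of 8 Ewing sarcoma markers, 6 had a median of at least 1 CPM over the libraries. Those under it were CCK and CD99, a standard marker of this tumour. CD99 had 50 reads in siLRWD1-5 replicate 2 and 0 in every other library, and why was not tested. The summed markers of haematopoietic, endothelial, epithelial, hepatocyte and adipocyte cells reached at most 1.54 CPM per cell type in any library. Scrambled replicate 2 stood apart: its counts differed from those of the other scrambled libraries with a chi-square per gene of 24.2 and 28.4, where the other replicate pairs gave 2.98 to 5.45. It was the lowest scrambled library for 35 of the 42 lipid genes (83.3%), against 39.8% of all genes tested. Calls against scrambled siRNA that change when it is left out are therefore given with and without it.

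Start regions of 7 genes are shown because they hold the letters read by SREBP or its partner NF-Y, or because the gene changed most within its branch. RefSeq windows of 250 bases before to 50 after the annotated start (GRCh38.p14) were matched for 37 of the 42 genes, taking the first listed window where there were several. ABCG1, ACAT2, FASN, FDFT1 and SQLE were not matched. The sterol element was searched as TCACNCCAC and as CACNCCAC, which lies inside it, the NF-Y box as CCAAT and the Sp1 box as GGGCGG, all on both strands. Capitals mark sterol elements and NF-Y boxes on either strand.

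HMGCS1, chr5:43313363-43313662, minus strand: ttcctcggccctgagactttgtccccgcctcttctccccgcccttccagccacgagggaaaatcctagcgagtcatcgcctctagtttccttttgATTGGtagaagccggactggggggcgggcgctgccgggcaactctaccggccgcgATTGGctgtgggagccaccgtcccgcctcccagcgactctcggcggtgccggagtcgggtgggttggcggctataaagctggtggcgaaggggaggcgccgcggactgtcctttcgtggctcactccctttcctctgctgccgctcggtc
MSMO1, chr4:165327419-165327718, plus strand: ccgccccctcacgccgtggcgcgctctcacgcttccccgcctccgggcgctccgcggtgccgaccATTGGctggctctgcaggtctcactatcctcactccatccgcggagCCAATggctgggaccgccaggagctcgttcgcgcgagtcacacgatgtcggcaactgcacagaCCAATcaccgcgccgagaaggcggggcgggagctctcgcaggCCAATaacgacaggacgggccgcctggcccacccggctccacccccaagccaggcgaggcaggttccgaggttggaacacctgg
SC5DL (SC5D in RefSeq), chr11:121292521-121292820, plus strand: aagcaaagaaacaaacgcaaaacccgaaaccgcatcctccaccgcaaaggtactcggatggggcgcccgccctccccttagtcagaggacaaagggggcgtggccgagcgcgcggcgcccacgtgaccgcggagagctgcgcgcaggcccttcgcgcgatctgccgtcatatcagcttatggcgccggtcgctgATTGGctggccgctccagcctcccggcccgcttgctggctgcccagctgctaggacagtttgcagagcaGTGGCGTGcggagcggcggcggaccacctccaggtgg
SREBF2, chr22:41832855-41833154, plus strand: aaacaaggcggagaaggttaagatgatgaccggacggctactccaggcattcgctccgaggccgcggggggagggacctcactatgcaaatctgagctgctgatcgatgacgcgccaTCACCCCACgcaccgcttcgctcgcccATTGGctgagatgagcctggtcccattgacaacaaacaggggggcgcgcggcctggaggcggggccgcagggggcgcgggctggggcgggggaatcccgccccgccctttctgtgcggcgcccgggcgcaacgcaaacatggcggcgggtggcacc
INSIG1, chr7:155297628-155297927, plus strand: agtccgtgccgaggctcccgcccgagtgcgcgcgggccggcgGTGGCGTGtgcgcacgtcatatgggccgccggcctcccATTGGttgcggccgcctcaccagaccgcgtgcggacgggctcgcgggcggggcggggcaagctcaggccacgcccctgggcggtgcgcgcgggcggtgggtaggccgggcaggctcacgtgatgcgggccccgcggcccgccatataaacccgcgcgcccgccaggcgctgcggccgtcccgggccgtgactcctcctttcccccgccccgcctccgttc
SCD, chr10:100346983-100347282, plus strand: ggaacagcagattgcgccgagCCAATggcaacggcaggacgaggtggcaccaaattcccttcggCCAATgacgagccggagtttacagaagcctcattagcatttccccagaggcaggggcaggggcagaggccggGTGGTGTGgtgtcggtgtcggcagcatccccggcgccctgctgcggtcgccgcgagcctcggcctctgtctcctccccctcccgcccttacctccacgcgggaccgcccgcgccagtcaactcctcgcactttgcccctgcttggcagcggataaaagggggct
ABCA1, chr9:104928106-104928405, minus strand: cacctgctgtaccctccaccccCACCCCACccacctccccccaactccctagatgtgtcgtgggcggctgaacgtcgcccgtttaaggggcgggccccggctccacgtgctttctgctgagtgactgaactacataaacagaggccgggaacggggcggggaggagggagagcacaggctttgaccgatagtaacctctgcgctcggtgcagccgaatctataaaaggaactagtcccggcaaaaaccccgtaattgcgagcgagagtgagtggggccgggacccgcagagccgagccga

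The longer sterol element was in 1 of the 37 windows, that of SREBF2, at positions -133 to -125 from the start, and in 1.13% of the 35116 RefSeq windows of this length. Its shorter form was in 5 of 37 (13.5%, against 5.87% of all windows): SREBF2, INSIG1, SCD, ABCA1 and SC5DL. An NF-Y box was in 20 of 37 (54.1%, against 34.6%), and the window of MSMO1 held 4. The Sp1 box was in 34 of 37 (91.9%, against 45%). An E-box, CACGTG, which SREBP-1 can also bind, was in 5 of 37 (13.5%, against 7.26%). The ATF4 element, searched as TTGCATCA and TGATGNAAT, was in 0 of 37 windows, against 0.866% and 0.991% of all windows. The 35116 windows were not limited to genes tested here, while all of the lipid genes were tested, so the sets compared are unlike. These matches are letters in short windows, not measured binding.

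**Figure D1:**
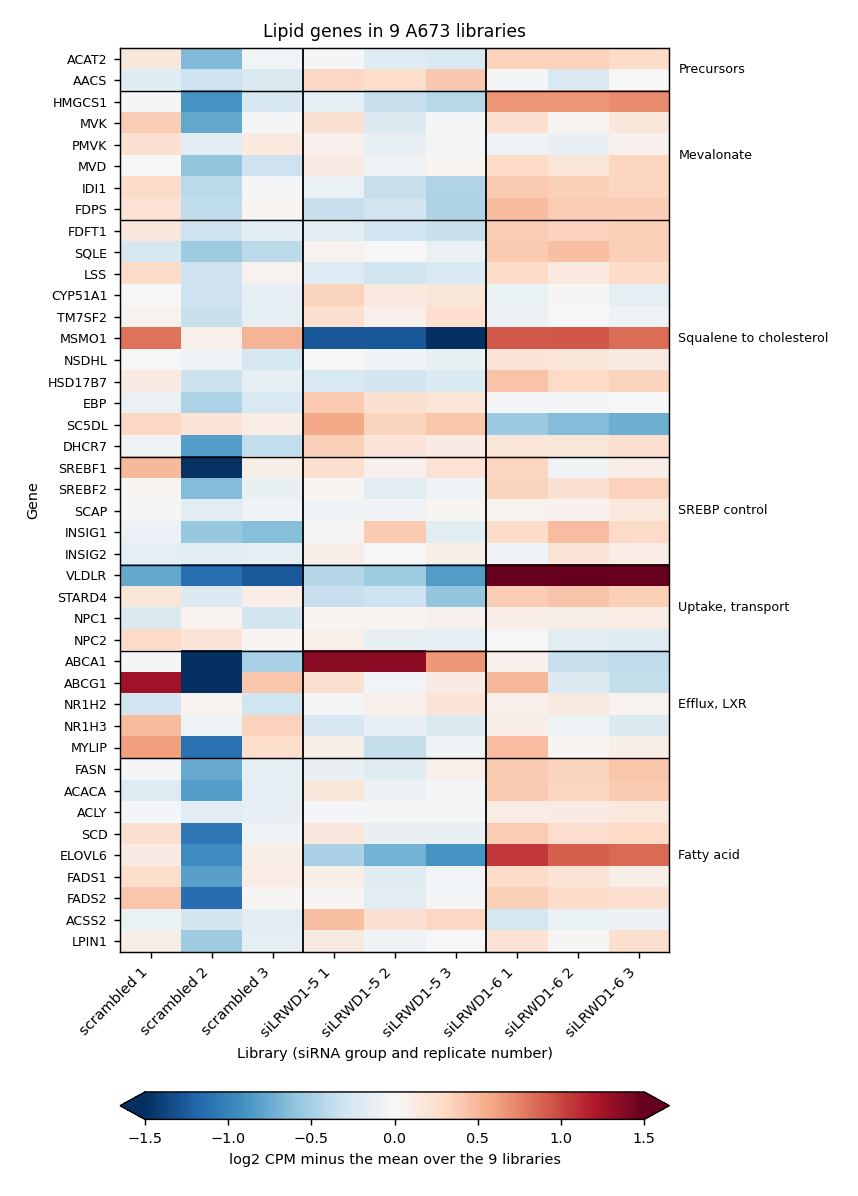
Rows are the 42 genes by role and columns the 9 libraries; colour is log2 CPM minus that gene's mean over the libraries, with the colour scale ending at 1.5 in either direction. Scrambled replicate 2 is blue in most rows, MSMO1 is dark blue in the 3 siLRWD1-5 libraries and VLDLR is dark red in the 3 siLRWD1-6 libraries.

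With siLRWD1-6, 16 of the 42 genes rose against scrambled siRNA and 2 fell, and their median log2 fold change was 0.30, beside -0.02 over all genes tested. Of all genes, 8.81% were called higher and 7.78% lower. These are bulk RNA values, in which a change in every cell and a change in some cells cannot be told apart. A gene is called when its p, adjusted over all genes tested by the Benjamini-Hochberg method, is under 0.05 in edgeR's quasi-likelihood test. Leaving out scrambled replicate 2 gave 19 higher and 4 lower with a median of 0.23, where 15.3% and 13.3% of all genes were called. Leaving out scrambled replicate 1 gave 22 higher, while the count over all genes went from 1203 to 921. Leaving out scrambled replicate 3 gave 9 higher, beside 7.33% of all genes. Leaving out siLRWD1-6 replicates 1, 2 and 3 in turn gave 7, 8 and 10 higher, beside 5.08%, 5.52% and 6.51%. The 2 lower genes became 1 without scrambled replicate 1, siLRWD1-5 replicates 2 or 3, or siLRWD1-6 replicates 2 or 3.

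With siLRWD1-5, 10 of the 42 rose and 3 fell, with a median of 0.12 beside -0.01 over all genes. Of all genes, 18.5% were called higher and 20.3% lower, so 10 of 42 is close to that background and 3 of 42 is below it. Without scrambled replicate 2 the counts became 12 higher and 14 lower and the median -0.02, and the shares of all genes 24.0% and 25.0%, so that 14 of 42 lower is then not below the background. With the replicate number as a block they were 13 higher and 5 lower, beside 21.2% and 22.3% of all genes. Both comparisons share the 3 scrambled libraries. The shares of all genes called with both siRNAs, in opposite directions or with neither are not given here. The counts that follow therefore describe the 42 genes alone. SQLE, DHCR7 and INSIG1 were called higher with both siRNAs, 0 genes were called lower with both by edgeR, DESeq2 or limma-voom (1 at an unadjusted edgeR p under 0.05), STARD4 and SC5DL were called in opposite directions, and 16 genes were called with neither.

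Set directly against siLRWD1-5, siLRWD1-6 gave 14 genes higher and 6 lower, with a median of 0.23 beside -0.01 over all genes. Of all genes, 22.4% were called higher and 20.9% lower. The fit takes its spread from the scrambled libraries too. Fitting only the siRNA groups compared gave 21 higher and 7 lower, beside 3794 and 3664 of all genes. Leaving out scrambled replicate 2 also gave 21 and 7, beside 3954 and 3597 of all genes. With no scaling beyond library size, all genes split into 2478 higher and 3609 lower, where TMM gave 3063 and 2856, and the lipid genes into 11 and 7. Of the 20 lipid genes called, 14 were called under each of the 18 alternative settings. The same held for 9 of 13 genes with siLRWD1-5 and 7 of 18 with siLRWD1-6 against scrambled siRNA. The share of all called genes that kept their call in these settings is not given here. The 6 lower genes became 3 without siLRWD1-5 replicate 1 or siLRWD1-6 replicate 3.

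**Figure D2:**
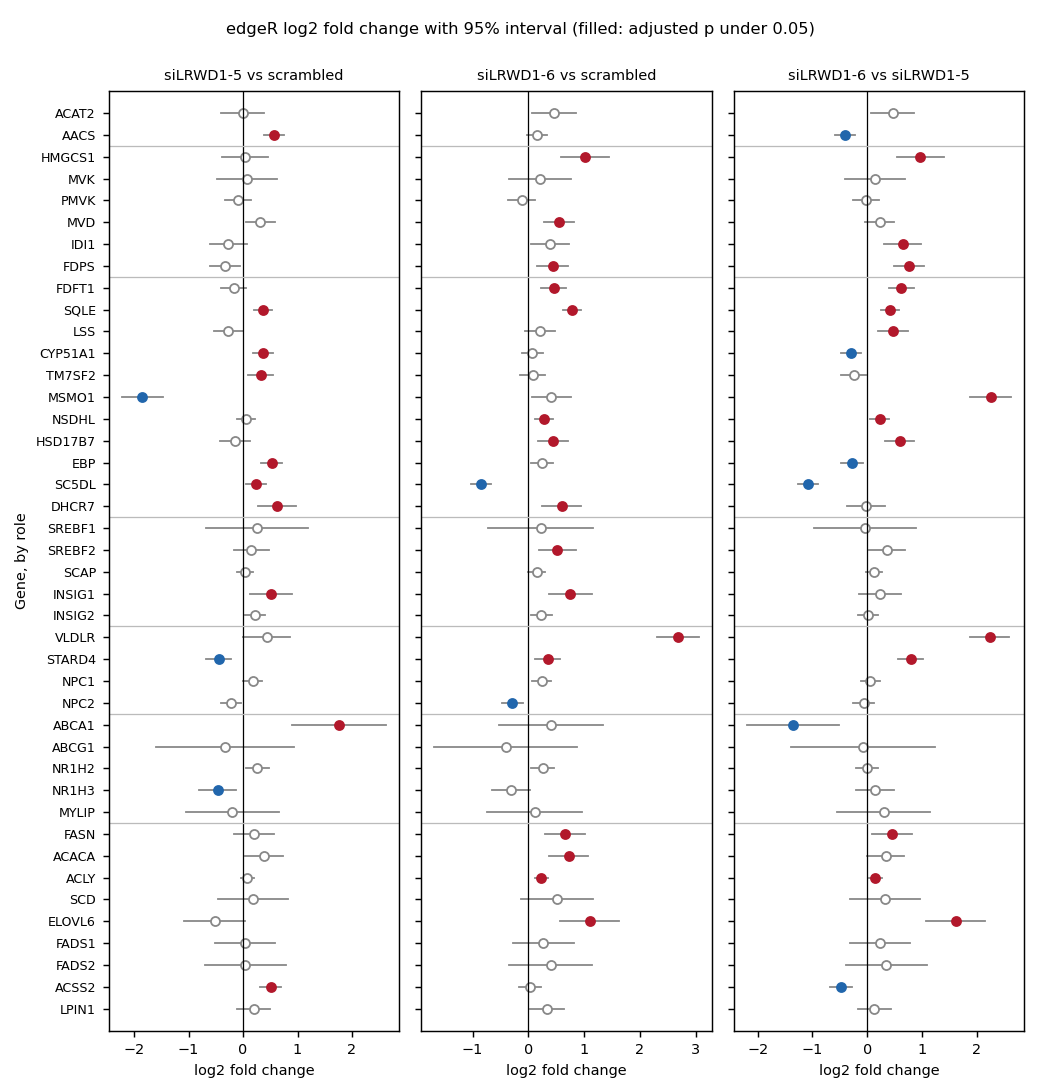
Points are edgeR log2 fold changes of the 42 genes in each comparison and lines their 95% intervals; filled points have an adjusted p under 0.05, red for higher and blue for lower. MSMO1 and SC5DL change side between the siRNAs, and the intervals of SREBF1, ABCA1, ABCG1, MYLIP and FADS2 are wide.

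Of the 6 mevalonate pathway genes, 3 rose with siLRWD1-6 (8.81% of all genes did). With siLRWD1-5, 0 were called by edgeR or limma-voom (1 higher and 1 lower at an unadjusted edgeR p under 0.05, and 1 of each by DESeq2). Of all genes, 18.5% were called higher and 20.3% lower with siLRWD1-5 by edgeR. Without scrambled replicate 2, 0 rose and 2 fell with siLRWD1-5, beside 24.0% and 25.0% of all genes. In that fit 3 rose with siLRWD1-6, beside 15.3%. HMGCS1, the synthase that makes HMG-CoA, had 223, 122 and 191 CPM in scrambled replicates 1, 2 and 3, 205, 176 and 168 CPM under siLRWD1-5 and 356, 357 and 367 CPM under siLRWD1-6. The siLRWD1-6 libraries lay above all others, and those of siLRWD1-5 lay within the scrambled range. HMGCS1 rose 2.02-fold with siLRWD1-6 (log2 change of 1.01, SE 0.19, adjusted p = 0.007; log2 0.81 without scrambled replicate 2). With siLRWD1-5 its log2 fold change was 0.04 (95% interval -0.38 to 0.46, adjusted p = 0.89). Between the siRNAs it was 1.96-fold higher with siLRWD1-6 (adjusted p = 0.0028).

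MVD, the decarboxylase that yields isopentenyl diphosphate, had 90.4, 60.5 and 73.5 CPM under scrambled siRNA, 99.2, 87.6 and 93.0 CPM under siLRWD1-5 and 111, 103 and 114 CPM under siLRWD1-6. The siLRWD1-6 libraries lay above all others, and those of siLRWD1-5 overlapped the scrambled group. MVD rose 1.46-fold with siLRWD1-6 (adjusted p = 0.012), or by 0.42 to 0.71 on the log2 scale over the 18 alternative settings. Its log2 fold change of 0.32 with siLRWD1-5 missed the threshold (adjusted p = 0.061), but it passed with the replicate block (0.33, adjusted p = 0.0091) and without scrambled replicate 1 (0.48). Between the siRNAs MVD was not called (0.23, adjusted p = 0.15), and it passed without scrambled replicates 1 or 2 (0.23 to 0.24).

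FDPS makes farnesyl diphosphate, from which sterols, ubiquinone and protein prenyl groups branch. It had 177, 117 and 155 CPM under scrambled siRNA, 120.1, 126 and 110.5 CPM under siLRWD1-5 and 213, 199 and 197 CPM under siLRWD1-6. The 2 siRNA groups lay far apart, with the scrambled libraries between and overlapping siLRWD1-5. FDPS was 1.70-fold higher with siLRWD1-6 than siLRWD1-5 (log2 0.77, SE 0.12, adjusted p = 0.00066) and 1.35-fold higher than with scrambled siRNA (adjusted p = 0.037). The latter call was lost without scrambled replicate 3, siLRWD1-5 replicates 1 or 3, or any siLRWD1-6 library (log2 0.40 to 0.47). With siLRWD1-5 the log2 fold change of FDPS was -0.33 (adjusted p = 0.056), and -0.48 without scrambled replicate 2 (adjusted p = 5e-06).

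IDI1, the isomerase of isopentenyl diphosphate, followed the same order, with 126, 78.8 and 101 CPM, 96.8, 81.7 and 75.7 CPM and 137, 133 and 129.8 CPM in the scrambled, siLRWD1-5 and siLRWD1-6 groups. It was 1.57-fold higher with siLRWD1-6 than siLRWD1-5 (adjusted p = 0.0064). Neither comparison with scrambled siRNA passed (log2 -0.27 and 0.38), although siLRWD1-5 passed without scrambled replicate 2 (-0.42) and siLRWD1-6 without scrambled replicate 1 (0.56). The kinases MVK and PMVK were called in none of the 3 comparisons by edgeR, with log2 fold changes from -0.12 to 0.21. The scrambled libraries ran from 25.9 to 57.3 CPM for MVK and from 25.7 to 33.9 CPM for PMVK, ranges that take in all 6 siRNA libraries. Pseudogene copies of FDPS and HSD17B7 exist, and the sources used here do not say how reads shared with them were counted.

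Among the suppliers, AACS, a ligase that turns acetoacetate into acetoacetyl-CoA, rose with siLRWD1-5. It had 33.0, 30.2 and 32.3 CPM under scrambled siRNA, 46.8, 45.1 and 49.8 CPM under siLRWD1-5 and 37.0, 32.0 and 37.5 CPM under siLRWD1-6, and the siLRWD1-5 libraries lay above all others. The rise was 1.48-fold (log2 change of 0.57, SE 0.08, adjusted p = 0.00028), and AACS was 1.33-fold lower with siLRWD1-6 than siLRWD1-5 (adjusted p = 0.0019). ACAT2, the cytosolic thiolase, had 140.3, 78.9 and 121 CPM under scrambled siRNA, 107 to 123 CPM under siLRWD1-5 and 151 to 159 CPM under siLRWD1-6, and no comparison passed. Its log2 fold changes were -0.01 and 0.46 against scrambled siRNA and 0.47 between the siRNAs (adjusted p = 0.054). All 3 passed without scrambled replicate 2 (-0.21, 0.27 and 0.48), and the last pair also without scrambled replicate 1.

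Of the 11 genes from squalene to cholesterol, 6 rose and 1 fell with siLRWD1-5, and 5 rose and 1 fell with siLRWD1-6. Over all genes these shares were 18.5% and 20.3% with siLRWD1-5 and 8.81% and 7.78% with siLRWD1-6. MSMO1, the monooxygenase that starts removal of a pair of methyl groups from the sterol ring, changed most with siLRWD1-5. It had 144, 86.2 and 116 CPM under scrambled siRNA, 33.8, 34.0 and 28.2 CPM under siLRWD1-5 and 155, 157 and 147 CPM under siLRWD1-6. Each siLRWD1-5 library was below every other library, the low scrambled one included. MSMO1 was 3.61-fold lower than with scrambled siRNA (log2 change of -1.85, SE 0.17, adjusted p = 3e-05; log2 -2.02 without scrambled replicate 2). It was 4.78-fold higher with siLRWD1-6 than siLRWD1-5 (log2 2.26, SE 0.17, adjusted p = 6.7e-06). Against scrambled siRNA its log2 fold change with siLRWD1-6 was 0.40 (adjusted p = 0.11), which passed without scrambled replicates 1 (0.60) or 2 (0.24).

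SC5DL, a desaturase of a later step in the same branch, moved in the other direction. It had 96.4, 89.7 and 84.1 CPM under scrambled siRNA, 116, 98.4 and 104 CPM under siLRWD1-5 and 53.0, 49.8 and 46.9 CPM under siLRWD1-6. The 3 groups did not overlap, and every siLRWD1-6 library was below all others. SC5DL fell with siLRWD1-6 against scrambled siRNA (log2 change of -0.85, SE 0.08, adjusted p = 5.7e-05) and 2.13-fold lower than siLRWD1-5 (log2 -1.09, SE 0.08, adjusted p = 1.8e-06). It rose 1.18-fold with siLRWD1-5 (adjusted p = 0.035), a call lost without scrambled replicate 3, siLRWD1-5 replicates 1 or 3, or siLRWD1-6 replicate 2 (log2 0.17 to 0.25).

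**Figure D3:**
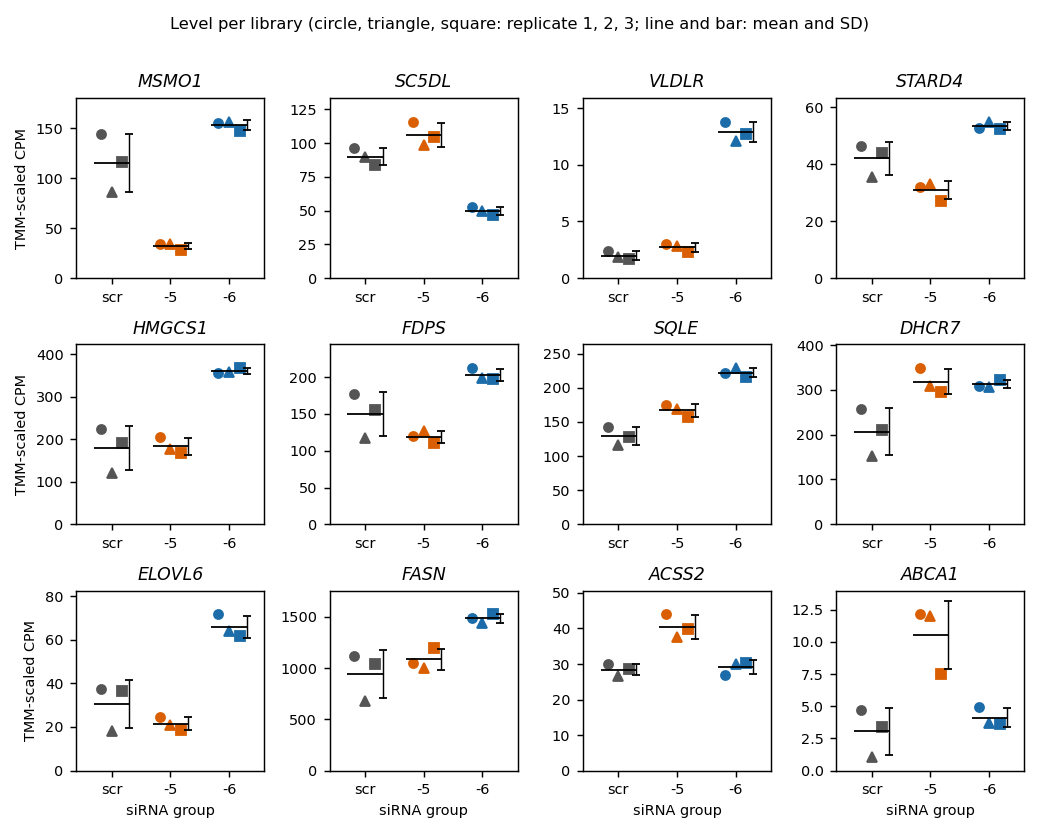
TMM-scaled CPM of 12 genes in each library, by siRNA group (scr, scrambled; -5 and -6, the LRWD1 siRNAs); symbols are replicates 1 to 3, horizontal lines means and bars SD (n = 3). MSMO1 stands at 28.2 to 34.0 CPM under siLRWD1-5, SC5DL at 46.9 to 53.0 CPM under siLRWD1-6, and VLDLR at 12.1 to 13.8 CPM under siLRWD1-6.

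SQLE, squalene monooxygenase, a rate-limiting step of the sterol branch, rose with both siRNAs. It had 142, 117 and 128 CPM under scrambled siRNA, 175, 169 and 157 CPM under siLRWD1-5 and 221, 229 and 216 CPM under siLRWD1-6, in 3 groups that did not overlap. The rise was 1.29-fold with siLRWD1-5 (log2 change of 0.37, SE 0.08, adjusted p = 0.0027) and 1.72-fold with siLRWD1-6 (log2 change of 0.78, SE 0.08, adjusted p = 5.7e-05). SQLE was 1.33-fold higher with siLRWD1-6 than siLRWD1-5 (adjusted p = 0.0011).

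DHCR7, the reductase of the final step to cholesterol, had 257, 153 and 209 CPM under scrambled siRNA, 349, 309.5 and 296 CPM under siLRWD1-5 and 308, 307 and 323 CPM under siLRWD1-6. Both siRNA groups lay above the scrambled libraries and overlapped each other. DHCR7 rose 1.54-fold with siLRWD1-5 (adjusted p = 0.012) and 1.51-fold with siLRWD1-6 (adjusted p = 0.03), or by 0.45 and 0.43 on the log2 scale without scrambled replicate 2. The siLRWD1-6 call was lost without scrambled replicate 3 or any siLRWD1-6 library (0.59 to 0.61). The difference between the siRNAs was -0.03 (95% interval -0.37 to 0.32, adjusted p = 0.91).

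CYP51A1, EBP and TM7SF2 rose with siLRWD1-5 and were not called with siLRWD1-6. CYP51A1, the lanosterol demethylase, had 78.3 to 96.4 CPM under scrambled siRNA, 107 to 122 CPM under siLRWD1-5 and 88.5 to 97.7 CPM under siLRWD1-6 (log2 0.37, adjusted p = 0.0053). EBP, a sterol isomerase, had 59.3 to 76.4 CPM, 92.8 to 107 CPM and 80.7 to 82.0 CPM (log2 0.52, adjusted p = 0.00089). For both, the siLRWD1-5 libraries lay above all others, and the siRNAs differed by -0.30 and -0.28 (siLRWD1-6 against siLRWD1-5; adjusted p = 0.014 and 0.025). Those last calls were lost without siLRWD1-5 replicate 1 or siLRWD1-6 replicates 1 or 3, and for EBP also without siLRWD1-6 replicate 2 (-0.28 to -0.24 for CYP51A1, -0.28 to -0.21 for EBP). EBP passed against scrambled siRNA with siLRWD1-6 without scrambled replicate 1 (0.33).

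TM7SF2, a sterol reductase, had 22.4 to 29.3 CPM under scrambled siRNA and 29.8 to 33.7 CPM under siLRWD1-5. Its log2 rise of 0.32 (adjusted p = 0.026) was lost without scrambled replicate 3 or siLRWD1-5 replicates 1 or 3 (0.29 to 0.31). Between the siRNAs TM7SF2 had -0.25 (adjusted p = 0.07) and passed without scrambled replicates 1 or 2.

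FDFT1, NSDHL and HSD17B7 rose with siLRWD1-6 and were not called with siLRWD1-5. FDFT1, squalene synthase, had 224 to 311 CPM under scrambled siRNA, 219 to 248 CPM under siLRWD1-5 and 352 to 361 CPM under siLRWD1-6. It rose by 0.45 on the log2 scale (adjusted p = 0.013), a call lost without siLRWD1-6 replicate 1 (0.44). The rise was 0.36 to 0.60 over the 18 alternative settings. FDFT1 stood 0.62 above siLRWD1-5 (adjusted p = 0.00064). With siLRWD1-5 FDFT1 had -0.17, and -0.27 and called without scrambled replicate 2. All 3 siLRWD1-6 libraries thus lay above every other library.

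HSD17B7 and NSDHL work beside MSMO1 in sterol demethylation. HSD17B7 had 9.40 to 12.9 CPM, 9.63 to 10.2 CPM and 14.5 to 15.8 CPM in the scrambled, siLRWD1-5 and siLRWD1-6 groups, a log2 rise of 0.45 with siLRWD1-6 (adjusted p = 0.028) that was lost without scrambled replicate 3 or any siLRWD1-6 library (0.41 to 0.47). It was 0.59 higher with siLRWD1-6 than siLRWD1-5 (adjusted p = 0.0024). NSDHL had 43.6 to 52.1 CPM, 48.4 to 52.1 CPM and 57.2 to 60.1 CPM, a rise of 0.28 with siLRWD1-6 (adjusted p = 0.028). The NSDHL call was lost without scrambled replicate 3 or siLRWD1-6 replicates 1 or 2 (0.21 to 0.27), and its call between the siRNAs (0.23, adjusted p = 0.031) without siLRWD1-5 replicates 2 or 3 or siLRWD1-6 replicates 1 or 2.

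LSS, which closes squalene epoxide to lanosterol, had 339, 224 and 286 CPM under scrambled siRNA, 242, 226 and 236 CPM under siLRWD1-5 and 334, 308 and 335 CPM under siLRWD1-6. It was 1.39-fold higher with siLRWD1-6 than siLRWD1-5 (adjusted p = 0.0098), with no overlap. Against scrambled siRNA it was called with neither (log2 -0.27, adjusted p = 0.1, and 0.20, adjusted p = 0.3). With siLRWD1-5 it was called with the replicate block (-0.26, adjusted p = 0.036) and without scrambled replicate 2 (-0.42, adjusted p = 2.6e-05), and with siLRWD1-6 without scrambled replicate 1 (0.35).

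Of the 5 genes of SREBP control, 1 rose with siLRWD1-5 and 2 with siLRWD1-6, beside 18.5% and 8.81% of all genes. By edgeR, 0 fell with either, also at an unadjusted p under 0.05 and by DESeq2 and limma-voom. Of all genes, 20.3% fell with siLRWD1-5 and 7.78% with siLRWD1-6 by edgeR. Without scrambled replicate 2, 0 of these genes rose with siLRWD1-5 and 1 with siLRWD1-6, beside 24.0% and 15.3% of all genes. Between the siRNAs 0 were called by edgeR and limma-voom and 1, higher with siLRWD1-6, by DESeq2 and at an unadjusted edgeR p under 0.05. In that comparison edgeR called 22.4% of all genes higher and 20.9% lower. SREBF2, which encodes the SREBP that acts mainly on sterol genes, had 272, 169.8 and 248 CPM under scrambled siRNA, 271, 239 and 257 CPM under siLRWD1-5 and 336, 311 and 339 CPM under siLRWD1-6. The siLRWD1-6 libraries lay above all others. SREBF2 rose 1.43-fold with siLRWD1-6 (log2 0.52, adjusted p = 0.04), a call lost without scrambled replicate 3 or any 1 of the 6 siRNA libraries (0.50 to 0.57). Over the 18 alternative settings SREBF2 rose by 0.35 to 0.66. Between the siRNAs it had 0.36 (adjusted p = 0.071) and passed without scrambled replicates 1 or 2 (0.36 to 0.37).

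INSIG1, which holds SCAP back and is itself an SREBP target, had 113, 81.4 and 77.4 CPM under scrambled siRNA, 122, 158 and 108 CPM under siLRWD1-5 and 145, 165 and 147 CPM under siLRWD1-6. The siLRWD1-6 libraries lay above the scrambled ones, while siLRWD1-5 overlapped them. It rose 1.43-fold with siLRWD1-5 (log2 0.51, adjusted p = 0.039) and 1.68-fold with siLRWD1-6 (log2 0.75, adjusted p = 0.017). Both calls were lost without scrambled replicate 2 (0.44, adjusted p = 0.17, and 0.69, adjusted p = 0.079), scrambled replicate 3 or siLRWD1-6 replicate 2. The siLRWD1-5 call was also lost without siLRWD1-5 replicates 1 or 2 or siLRWD1-6 replicates 1 or 3.

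SREBF1, whose products act mainly on fatty acid genes, had 243, 61.6 and 183 CPM under scrambled siRNA, 205, 181 and 200.2 CPM under siLRWD1-5 and 216, 167 and 185 CPM under siLRWD1-6. The spread lay within the scrambled group, which took in all 6 other libraries. Its log2 fold changes were 0.26 (95% interval -0.67 to 1.19) and 0.22 (-0.72 to 1.15), too wide to show a change of this size. SCAP had 61.7 to 69.8 CPM under scrambled siRNA and log2 fold changes of 0.03 and 0.15, and INSIG2 had 24.9 to 25.1 CPM and 0.21 and 0.23, with none called.

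Among the 4 genes of uptake and transport, VLDLR, a receptor for triglyceride-rich lipoproteins, changed most. It had 2.40, 1.86 and 1.70 CPM under scrambled siRNA (38, 23 and 22 reads), 3.02, 2.81 and 2.27 CPM under siLRWD1-5 (48, 38 and 28 reads) and 13.8, 12.1 and 12.7 CPM under siLRWD1-6 (198, 165 and 150 reads). Each siLRWD1-6 library was far above every other. VLDLR was 6.38-fold higher with siLRWD1-6 than with scrambled siRNA (log2 change of 2.67, SE 0.17, adjusted p = 3.9e-06) and 4.71-fold higher than siLRWD1-5 (log2 2.24, SE 0.16, adjusted p = 1.4e-06). With siLRWD1-5 its log2 fold change was 0.44 (95% interval 0.01 to 0.87, adjusted p = 0.099).

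STARD4, a cytosolic carrier of cholesterol, had 46.6, 35.7 and 44.0 CPM under scrambled siRNA, 32.2, 33.1 and 27.2 CPM under siLRWD1-5 and 53.0, 55.0 and 52.6 CPM under siLRWD1-6. The 3 groups did not overlap, with siLRWD1-5 lowest and siLRWD1-6 highest. It was 1.36-fold lower with siLRWD1-5 (log2 change of -0.45, SE 0.11, adjusted p = 0.0062), 1.27-fold higher with siLRWD1-6 (adjusted p = 0.042) and 1.73-fold higher with siLRWD1-6 than siLRWD1-5 (adjusted p = 0.00012). The rise with siLRWD1-6 was lost without scrambled replicate 3, siLRWD1-5 replicate 1 or any siLRWD1-6 library (0.33 to 0.38).

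NPC1 and NPC2 together move cholesterol out of the lysosome. NPC2 had 149, 139 and 125 CPM under scrambled siRNA, 129, 113 and 111 CPM under siLRWD1-5 and 122, 108 and 107 CPM under siLRWD1-6. It fell with siLRWD1-6 (log2 -0.29, adjusted p = 0.04), a call lost without scrambled replicate 1, siLRWD1-5 replicates 2 or 3, or siLRWD1-6 replicates 2 or 3 (-0.29 to -0.23). With siLRWD1-5 NPC2 had -0.22 (adjusted p = 0.059), called with the replicate block (-0.22, adjusted p = 0.0082) and without scrambled replicates 2 or 3 or siLRWD1-5 replicate 1 (-0.29 to -0.22).

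NPC1 was, with NR1H2, 1 of 2 genes highest in scrambled replicate 2 among the scrambled libraries, with 100.01, 120.3 and 96.1 CPM, against 118 to 122 CPM under siLRWD1-5 and 123 to 125 CPM under siLRWD1-6. Its log2 fold changes were 0.18 and 0.24, not called. Without that library they were 0.28 (adjusted p = 4e-04) and 0.35 (adjusted p = 0.00011).

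Of the 9 fatty acid genes, 4 rose with siLRWD1-6 and 1 with siLRWD1-5, beside 8.81% and 18.5% of all genes. With either siRNA 0 fell by edgeR, also at an unadjusted p under 0.05 and by DESeq2 and limma-voom. Of all genes, 20.3% fell with siLRWD1-5 and 7.78% with siLRWD1-6 by edgeR. Without scrambled replicate 2, 2 rose and 3 fell with siLRWD1-5, beside 24.0% and 25.0% of all genes. In that fit 4 rose and 0 fell with siLRWD1-6, beside 15.3% and 13.3%. ELOVL6, which elongates saturated and monounsaturated fatty acids, had 37.5, 17.99 and 36.6 CPM under scrambled siRNA, 24.5, 21.1 and 18.7 CPM under siLRWD1-5 and 71.8, 64.0 and 62.0 CPM under siLRWD1-6. Scrambled replicate 2 was as low as the siLRWD1-5 libraries, and every siLRWD1-6 library was above all others. ELOVL6 was 3.07-fold higher with siLRWD1-6 than siLRWD1-5 (log2 1.62, SE 0.24, adjusted p = 0.00066) and 2.14-fold higher than with scrambled siRNA (log2 change of 1.10, SE 0.23, adjusted p = 0.013). The latter call was lost without siLRWD1-6 replicate 1 (1.03). Over the 18 alternative settings ELOVL6 rose by 0.84 to 1.27 with siLRWD1-6 against scrambled siRNA. With siLRWD1-5 it had -0.52 (adjusted p = 0.13), and -0.78 without scrambled replicate 2 (adjusted p = 1.5e-06).

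FASN, fatty acid synthase, had 1114, 675 and 1039.9 CPM under scrambled siRNA, 1054, 1003 and 1200.5 CPM under siLRWD1-5 and 1494, 1443 and 1527 CPM under siLRWD1-6, with the siLRWD1-6 libraries above all others. It rose 1.58-fold with siLRWD1-6 (log2 0.66, adjusted p = 0.023), a call lost without any 1 siLRWD1-6 library (0.65 to 0.68). FASN had log2 rises of 0.48 to 0.80 over the 18 alternative settings. Between the siRNAs it was 1.37-fold higher (adjusted p = 0.046), a call lost without scrambled replicate 3 or any 1 of the 6 siRNA libraries (0.40 to 0.53).

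ACACA, the carboxylase that makes malonyl-CoA, had 84.5, 54.6 and 88.0 CPM under scrambled siRNA, 109, 91.2 and 95.6 CPM under siLRWD1-5 and 127, 121 and 127 CPM under siLRWD1-6. Both siRNA groups lay above the scrambled libraries. It rose 1.65-fold with siLRWD1-6 (log2 0.72, adjusted p = 0.012), or by 0.54 to 0.84 on the log2 scale over the 18 alternative settings. With siLRWD1-5 its 0.38 (adjusted p = 0.079) passed with the replicate block (0.40, adjusted p = 0.023) and without scrambled replicates 2 or 3 (0.20 to 0.50). Its difference between the siRNAs, 0.34, was not called (adjusted p = 0.1) and passed in 4 of the 18 alternative settings, among them the fit of those groups alone and that without scrambled replicate 2 (0.35). ACLY, the lyase that supplies cytosolic acetyl-CoA, had 329 to 357 CPM, 359 to 361 CPM and 393 to 406 CPM in the scrambled, siLRWD1-5 and siLRWD1-6 groups. ACLY rose by 0.23 with siLRWD1-6 (adjusted p = 0.012) and stood 0.15 above siLRWD1-5 (adjusted p = 0.039), the latter call lost without any 1 of the 6 siRNA libraries.

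ACSS2, the ligase that makes acetyl-CoA from acetate, rose with siLRWD1-5. It had 29.9, 26.7 and 28.7 CPM under scrambled siRNA, 44.0, 37.6 and 39.8 CPM under siLRWD1-5 and 26.8, 30.1 and 30.4 CPM under siLRWD1-6, and the siLRWD1-5 libraries lay above all others, as they did for AACS. The rise was 1.42-fold (log2 change of 0.51, SE 0.09, adjusted p = 0.00094), and ACSS2 was 1.39-fold lower with siLRWD1-6 than siLRWD1-5 (adjusted p = 0.0012).

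The desaturases SCD, FADS1 and FADS2 were called in none of the 3 comparisons by edgeR, and their levels in scrambled replicate 2 were 44.4%, 49.7% and 38.7% of the mean of the other scrambled libraries. SCD had 1396, 563 and 1137 CPM under scrambled siRNA, 1335, 1099.9 and 1096 CPM under siLRWD1-5 and 1546, 1421 and 1459 CPM under siLRWD1-6. FADS1 had 551, 259 and 492 CPM, 404 to 486 CPM and 486 to 552 CPM, and FADS2 641, 218 and 483 CPM, 426 to 486 CPM and 573 to 612 CPM. Without scrambled replicate 2, FADS1 and FADS2 were lower with siLRWD1-5 (-0.23, adjusted p = 0.018, and -0.29, adjusted p = 0.043), where with it they had 0.04 and 0.04. Leaving it out also brought SCD, FADS1 and FADS2 past the threshold between the siRNAs, at 0.34, 0.24 and 0.37, higher with siLRWD1-6. LPIN1, a phosphatidate phosphatase, had 0.20 and 0.33 against scrambled siRNA, called without scrambled replicate 1 (0.35 and 0.48).

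Of the 5 efflux and LXR genes, 1 rose and 1 fell with siLRWD1-5 (18.5% and 20.3% of all genes did). With siLRWD1-6, 0 were called by edgeR, DESeq2 or limma-voom (1 higher at an unadjusted edgeR p under 0.05). Of all genes, 8.81% were called higher and 7.78% lower with siLRWD1-6 by edgeR. Without scrambled replicate 2, 1 rose and 2 fell with siLRWD1-6, beside 15.3% and 13.3% of all genes. In that fit 2 rose and 3 fell with siLRWD1-5, beside 24.0% and 25.0%. ABCA1, which exports cholesterol to apolipoprotein A-I and is a classic LXR target, had 4.68, 1.05 and 3.40 CPM under scrambled siRNA (74, 13 and 44 reads), 12.2, 11.999 and 7.47 CPM under siLRWD1-5 (193, 162 and 92 reads) and 4.95, 3.73 and 3.64 CPM under siLRWD1-6 (71, 51 and 43 reads). The siLRWD1-5 libraries lay above all others, and siLRWD1-6 overlapped the scrambled group. ABCA1 rose 3.39-fold with siLRWD1-5 (log2 change of 1.76, SE 0.38, adjusted p = 0.0057; log2 1.38, adjusted p = 4.3e-05, without scrambled replicate 2). It was 2.57-fold lower with siLRWD1-6 than siLRWD1-5 (adjusted p = 0.015), a call lost without siLRWD1-5 replicates 1 or 2 or siLRWD1-6 replicates 2 or 3 (-1.29 to -1.24).

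ABCG1, the transporter that loads cholesterol onto mature high-density lipoprotein, was not called with either siRNA. It had 8.02, 0.891 and 4.48 CPM under scrambled siRNA (127, 11 and 58 reads), 3.97, 3.26 and 3.65 CPM under siLRWD1-5 and 4.74, 2.92 and 2.62 CPM under siLRWD1-6. All 6 siRNA libraries lay within the scrambled range, and the log2 fold changes were -0.33 (95% interval -1.60 to 0.94) and -0.40 (-1.69 to 0.88). Without scrambled replicate 2 they were -0.80 and -0.86 (adjusted p = 0.015 and 0.019).

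NR1H3, which encodes LXR alpha, had 11.6, 7.86 and 10.6 CPM under scrambled siRNA, 6.99, 7.63 and 7.14 CPM under siLRWD1-5 and 8.92, 7.96 and 7.20 CPM under siLRWD1-6. It fell with siLRWD1-5 (log2 -0.47, adjusted p = 0.033), a call lost without scrambled replicates 1 or 3 or any siLRWD1-5 library (-0.50 to -0.35). With siLRWD1-6 it had -0.32, called without scrambled replicate 2 (-0.45). NR1H2, LXR beta, had 70.6, 89.8 and 70.4 CPM under scrambled siRNA, 85.5 to 99.0 CPM under siLRWD1-5 and 89.1 to 94.5 CPM under siLRWD1-6. Its log2 fold changes of 0.26 and 0.25 were not called (adjusted p = 0.052 and 0.096). The first passed in 9 of the 18 alternative settings: RLE size factors, no scaling, no count filter, a filter of 1 CPM, DESeq2, limma-voom, the replicate block (0.26, adjusted p = 0.026), libraries 1 and 3 alone and the fit without scrambled replicate 2. Both passed without scrambled replicate 2 (0.38 and 0.39). MYLIP, an LXR-induced ubiquitin ligase that degrades lipoprotein receptors, had 61.2, 18.5 and 48.1 CPM under scrambled siRNA and was not called (-0.20 and 0.11), but fell with siLRWD1-5 without scrambled replicate 2 (-0.55, adjusted p = 0.038).

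Scrambled replicate 2 was set against the mean of scrambled replicates 1 and 3 gene by gene. Over the 42 genes the median difference was -0.45 on the log2 scale, beside 0.02 over all genes tested. By role, the median was -1.55 for efflux and LXR genes, -0.67 for fatty acid genes, -0.51 for mevalonate genes, -0.30 from squalene to cholesterol, -0.20 for SREBP control and -0.04 for uptake and transport. The lowest were ABCG1 at 14.3% of the mean of the other scrambled libraries, ABCA1 at 26.1%, SREBF1 at 28.9%, MYLIP at 33.8%, FADS2 at 38.7% and SCD at 44.4%. NR1H2 at 127% and NPC1 at 123% were above. The library numbered 2 was the lowest of its group in all 3 groups for 12 of the 42 genes, against 9.39% of all genes tested. What set this library apart was not tested.

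**Figure D4:**
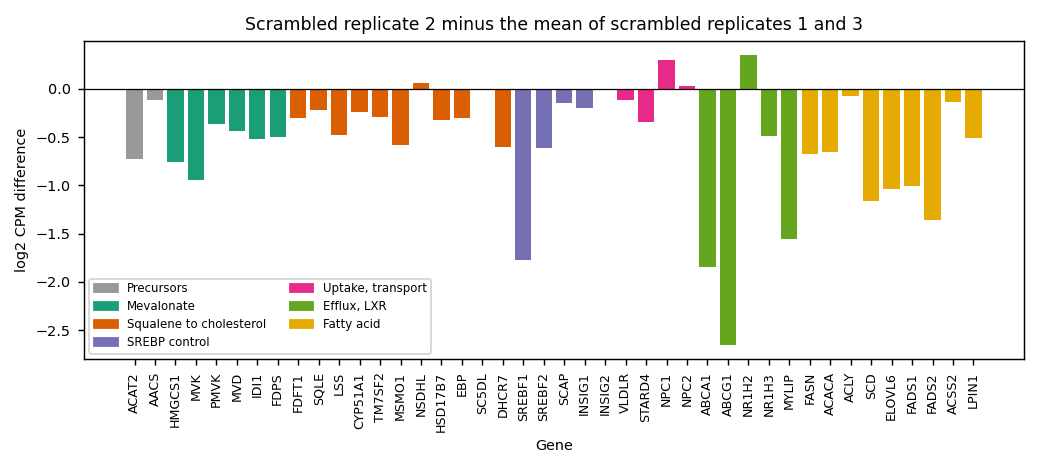
Bars are log2 CPM in scrambled replicate 2 minus the mean log2 CPM of scrambled replicates 1 and 3, for the 42 genes coloured by role. Most bars are below 0, those of ABCG1, ABCA1 and SREBF1 reach furthest, and NPC1 and NR1H2 stand above 0.

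The neighbouring lipid pathways were read from a list of 67 other genes, of which 63 were tested. With siLRWD1-5, 20 rose and 10 fell with a median log2 fold change of 0.09, beside 18.5% and 20.3% of all genes. With siLRWD1-6, 12 rose and 2, PDSS1 and CPT1A (both named after their values were seen), fell, beside 8.81% and 7.78% of all genes, and the median log2 change of the list was 0.08. Between the siRNAs 15 were higher and 12 lower, beside 22.4% and 20.9%. Of 10 genes of sterol sensing and SREBP processing, 7 rose and 1 fell with siLRWD1-5, and 3 rose with siLRWD1-6, to be read against the same shares. The 1 that fell was PAQR3, a Golgi protein that anchors SCAP, and the 3 that rose with siLRWD1-6 were SYVN1, OSBP and MBTPS2, a protease that cleaves SREBP (PAQR3 and MBTPS2 are named after their values were seen). OSBP, an oxysterol-binding lipid carrier, rose by 0.51 with siLRWD1-6 (adjusted p = 0.00033), and SYVN1, a ubiquitin ligase of the endoplasmic reticulum, by 0.67 (adjusted p = 0.00038). These 3 genes were also called higher with siLRWD1-5: OSBP by 0.27, SYVN1 by 0.50 and MBTPS2 by 0.56, where MBTPS2 had 0.43 with siLRWD1-6.

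ME1, the malic enzyme that supplies NADPH for lipid synthesis, fell with siLRWD1-5, with 171, 172 and 171 CPM in the scrambled, 92.2, 84.2 and 84.6 CPM in the siLRWD1-5 and 185, 180.1 and 171 CPM in the siLRWD1-6 libraries. It was 1.97-fold lower than with scrambled siRNA (log2 change of -0.98, SE 0.06, adjusted p = 5.3e-07) and 2.05-fold higher with siLRWD1-6 than siLRWD1-5 (adjusted p = 2.8e-07). Its scrambled libraries were even, unlike those of the desaturases. PPARA, a nuclear receptor for fatty acids, had 16.7, 15.2 and 14.7 CPM, 12.4, 12.6 and 15.7 CPM and 31.0, 28.7 and 30.4 CPM in the same order of groups, and rose 1.93-fold with siLRWD1-6 (adjusted p = 0.00015). PPARA was called lower with siLRWD1-5 only when siLRWD1-5 replicate 3 was left out (-0.31).

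In the isoprenoid branch that leaves at farnesyl diphosphate, 1 of 9 genes, NUS1, rose and 3, PDSS1, PDSS2 and COQ2, fell with siLRWD1-5, beside 18.5% and 20.3% of all genes (PDSS1 and COQ2 are named after their values were seen). PDSS2, a subunit of the synthase for the ubiquinone side chain, had 21.4, 19.6 and 22.5 CPM under scrambled siRNA, 9.58, 10.00 and 9.42 CPM under siLRWD1-5 and 20.7, 22.9 and 19.1 CPM under siLRWD1-6. It was 2.19-fold lower with siLRWD1-5 than with scrambled siRNA (adjusted p = 9.7e-06). NUS1, a subunit of the enzyme for dolichol synthesis, rose by 0.56 on the log2 scale with siLRWD1-6 (adjusted p = 0.0027). AGPAT2, an acyltransferase of glycerolipid synthesis, rose by 0.71 with siLRWD1-5 (adjusted p = 5.3e-05) and was 1.84-fold lower with siLRWD1-6 than siLRWD1-5 (adjusted p = 8.5e-06).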

How the data were processed

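RNA was sequenced from 9 A673 libraries prepared by the TruSeq RNA v2 protocol, whose libraries carry no strand information. The authors deposited raw read counts per gene symbol for all 9 libraries in 1 table, made, per the submitters' processing notes, on hg19 with HTSeq 0.5.4p3, TopHat2 2.0.10 and bcl2fastq 1.8.4. The sources used here do not give the annotation or counting mode, so reads of overlapping or antisense genes and near-identical copies may be shared. Of 23368 rows, 4596 held no count. Genes kept by filterByExpr (13648) were tested with edgeR 4.0.16 (R 4.3.3, TMM, robust quasi-likelihood fit on all 9 libraries, group as the sole term), with Benjamini-Hochberg adjustment and a threshold of 0.05. Standard errors are the absolute log2 fold change over the root of F. Intervals are 95%. The test was run on simulated data first. The genes named are the 42 members, LRWD1 and, per comparison, up to 4 called genes of the other lipid list with the smallest p; exceptions are marked, and 1 item the rule would name is not reported here. The members and lists were chosen with earlier results of these data known. Alternatives were size factors, no scaling, count filters, DESeq2 1.42.0, limma-voom (limma 3.58.1), a replicate block, fewer libraries or groups, and each library left out. Same-numbered scrambled and siLRWD1-5 libraries deviated together from their group means (r of 0.24, 0.36 and 0.11 over genes). Scrambled replicate 3 was, however, slightly closer to siLRWD1-5 replicate 1 (0.13). The blocked fit is given beside results of that comparison that it changes, and for the other comparisons in the last section. The labels say "series" and a number, not what it shares. Figures used matplotlib 3.10.9 in Python 3.11.15.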

Additional observations from a re-analysis of the deposited data

How the results depend on the processing

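For genes lower with siLRWD1-5, 3 of the 42 became 5 with the replicate block and 9 with libraries numbered 1 and 3 alone. Over all genes, 2765 lower became 3038 and 3173 in the same settings. For siLRWD1-6 against scrambled siRNA, fitting those groups alone gave 10 higher and 1 lower instead of 16 and 2. Over all genes that fit gave 927 higher and 696 lower instead of 1203 and 1062. Libraries 1 and 3 alone gave 1933 higher and 1646 lower over all genes. Leaving out 1 library at a time gave ranges over the 42 genes of 2 to 14 lower for siLRWD1-5, 7 to 22 higher and 1 to 4 lower for siLRWD1-6, and 3 to 7 lower between the siRNAs. Over all genes, siLRWD1-6 had 702 to 2115 higher and 546 to 1838 lower, the highest counts without scrambled replicate 2 and the lowest without siLRWD1-6 replicate 1. With siLRWD1-5, the log2 fold changes of FADS1 and FADS2 ranged from -0.23 to 0.24 and from -0.29 to 0.39, lowest and called without scrambled replicate 2; the cause was not tested. Of the 9 libraries, 8 were closest to their own number in both other groups. For siLRWD1-6 against scrambled siRNA and between the siRNAs, r of same-numbered libraries was always positive (0.05 to 0.28). It was lowest for replicate 3 (0.05 and 0.09). In those comparisons the block gave 20 higher and 2 lower, adding IDI1, EBP, NPC1 and LPIN1, and 18 higher and 6 lower, adding MVD, ACAT2, SREBF2 and ACACA. Over all genes the block gave 1472 higher and 1343 lower, and 3335 higher and 3157 lower. With siLRWD1-5 the block changed no call other than those of MVD, LSS, NPC2, NR1H2 and ACACA. DESeq2 gave 13 and 4, 19 and 2, and 16 and 6 higher and lower in the 3 comparisons, and limma-voom 11 and 3, 16 and 2, and 15 and 6. Over all genes DESeq2 gave 2475 and 2605, 1316 and 1053, and 2978 and 2707. The same counts by limma-voom were 2643 and 2721, 1246 and 1025, and 3073 and 2878. Fitting only the groups compared lost the calls of TM7SF2, SC5DL, INSIG1 and NR1H3 with siLRWD1-5 and of FDPS, NSDHL, HSD17B7, DHCR7, SREBF2, STARD4 and NPC2 with siLRWD1-6. No scaling lost NR1H3 with siLRWD1-5, FDPS, DHCR7, SREBF2 and STARD4 with siLRWD1-6, and NSDHL, FASN and ACLY between the siRNAs. No count filter lost INSIG1 with siLRWD1-5, DHCR7, SREBF2 and FASN with siLRWD1-6, and FASN and ACLY between the siRNAs. Libraries 1 and 3 alone lost INSIG1 with both siRNAs, and STARD4 and NPC2 with siLRWD1-6. DESeq2 added MVD, FDPS, NR1H2 and ACACA with siLRWD1-5, ACAT2, MSMO1 and NPC1 with siLRWD1-6, and ACAT2 and SREBF2 between the siRNAs. In the scrambled library with fewest reads of each, ABCG1 had 11, ABCA1 13 and VLDLR 22; how much of their spread is counting error was not tested.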
